A study of Mus musculus with 2 samples.

Results

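The cells described here were picked from single-cell libraries of mouse ID8 ovarian tumours by a rule meant to catch monocytes that carry little C1q. The rule takes barcodes with at least 250 genes and at most 20% mitochondrial UMIs (unique molecular identifiers, the counted RNA molecules). It then asks for a summed count of at least 3 UMIs of the monocyte genes Ly6c2, Chil3, Plac8 and Ms4a4c, at least 1 UMI of Csf1r or Ccr2, and at most 2 UMIs of C1qa, C1qb and C1qc together. Barcodes with Cd3e, Cd79a, Flt3 or Siglech, with more than 1 UMI of Csf3r or Krt18, or with S100a8 and S100a9 at 100 or more per 10000 UMIs were left out. It found 271 of 14908 kept barcodes in the chemoresistant library and 214 of 12824 in the primary library, 485 of 27732 in all. All these genes chose the cells, so their levels are given as a description.

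The study compared chemoresistant tumours, labelled as treated with cisplatin (a platinum drug that damages DNA), with primary tumours labelled as not treated. ID8 is a transplantable mouse line of ovarian surface epithelium. Solid tumours were digested with collagenase, red cells were lysed, and the suspensions were pooled and run as 1 droplet library per group. The number of tumours in a pool, the dose, the timing and the age of the mice are not given in the sources used here. With 1 pooled library per group no test of the groups was possible, and the treatment, the pool and the library cannot be told apart. Values are therefore set side by side, and every interval is a 95% interval that covers counting error only.

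Monocytes leave the bone marrow as circulating myeloid cells and enter tissues, where they can become macrophages or antigen-presenting cells. Classical mouse monocytes carry Ly6c2 and the chemokine receptor Ccr2, which guides them to sites of inflammation, while non-classical monocytes patrol vessels and carry Nr4a1, Ace and Treml4. C1q, the first component of the classical complement pathway, is made by mature tissue macrophages, so a rule that caps it aims at the less mature end of this line. In tumours such cells can make inflammatory cytokines such as Il1b, checkpoint ligands such as Cd274, or interferon-induced genes.

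The chemoresistant matrix held 158118781 UMIs in 16390 barcodes and the primary matrix 141334623 UMIs in 14390 barcodes. In the chemoresistant library 1085 barcodes were under the gene limit and 427 over the mitochondrial limit, against 287 and 1483 in the primary library. Kept barcodes had a median of 4634 UMIs in the chemoresistant and 5744 UMIs in the primary library. The picked cells had a median of 4402 UMIs and 9028 UMIs, so the primary cells were deeper, and they summed to 1619323 UMIs in the chemoresistant and 2076249 UMIs in the primary library. The libraries share 52 barcode sequences, and 0 of these belong to the picked cells. Doublets were not removed beyond the rule. The caller Scrublet marked 18 picked cells (6.64%) in the chemoresistant library, where its automatic threshold marked no barcode and a set share was used instead, and 1 (0.467%) in the primary library.

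The data go partly against the name monocyte. Lyz2, the lysozyme gene that monocytes and macrophages carry at high level and that the rule did not use, had a median of 7.06 per 10000 UMIs in the picked chemoresistant cells, with quartiles of 1.64 and 61.7. In the picked primary cells its median was 32.8, with quartiles of 2.49 and 90.9. The antigen-presentation genes H2-Aa, H2-Ab1, H2-Eb1 and Cd74 (class II) together had medians of 161 per 10000 in the chemoresistant and 21.2 in the primary cells. In both libraries the cells spread over separate groups on the plot of these 2 measures. They were therefore split at 20 Lyz2 and 80 class II UMIs per 10000, thresholds chosen after the values were seen. Within 2-fold of the Lyz2 threshold lay 30 chemoresistant and 38 primary cells, and within 2-fold of the class II threshold 23 and 28.

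**Figure D1:**
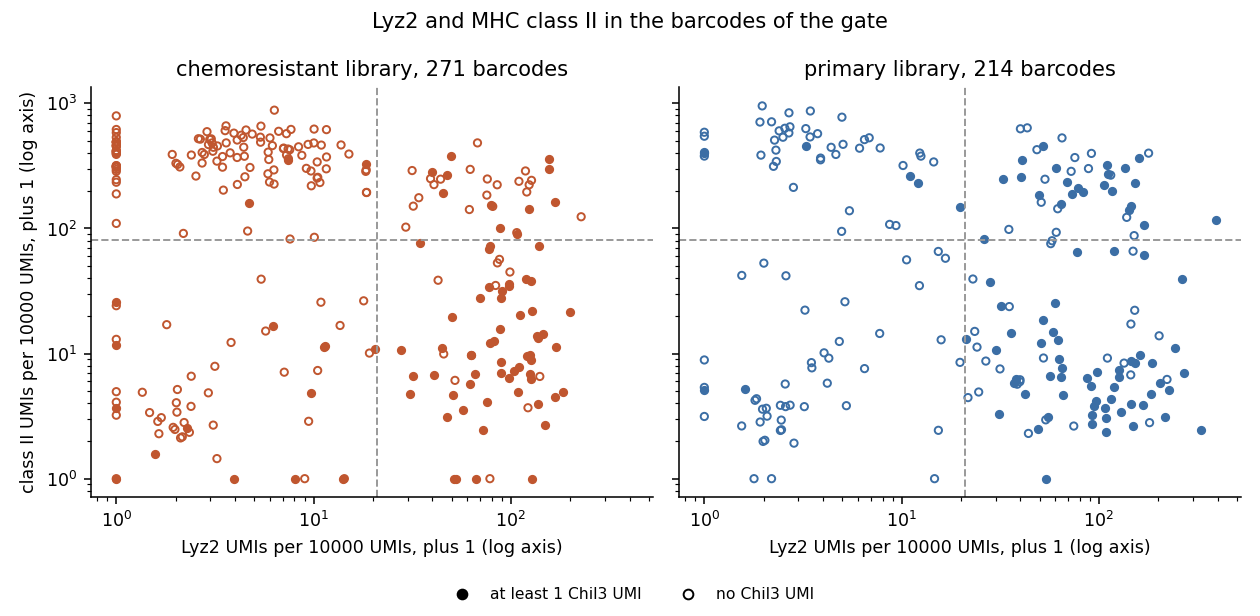
Lyz2 against summed class II genes, each as UMIs per 10000 plus 1 on log axes, with 1 point per picked cell, the chemoresistant library (271 cells) on the left and the primary library (214 cells) on the right; filled points carry at least 1 Chil3 UMI and dashed lines mark the thresholds of 20 and 80. The Lyz2-low, class II-high corner holds 120 chemoresistant and 46 primary cells, and most Chil3-carrying cells lie right of the Lyz2 threshold.

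Cells with Lyz2 at or above the threshold, called Lyz2-carrying here, were 98 of 271 (36.2%, exact Clopper-Pearson interval 30.4 to 42.2%) in the chemoresistant library, against 121 of 214 (56.5%, 49.6 to 63.3%) in the primary library. The difference was -20.4 percentage points (-29.2 to -11.2). They divided into class II-low cells, 66 (24.4%) chemoresistant and 81 (37.9%) primary, and class II-high cells, 32 (11.8%) and 40 (18.7%). Lyz2-low, class II-high cells were 120 (44.3%, 38.3 to 50.4%) of the chemoresistant and 46 (21.5%, 16.2 to 27.6%) of the primary cells. The cells low in both, 53 chemoresistant and 47 primary, included 25 and 21 with at least 5 UMIs of the fibroblast genes Col1a1, Col1a2, Col3a1 and Dcn. Another 3 and 9 had at least 2 UMIs of T or natural killer genes. The remaining 25 chemoresistant and 17 primary cells had neither. Ptprc, the pan-leukocyte surface gene, was not detected in 61 chemoresistant and 26 primary cells.

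Plac8, a small cysteine-rich protein of many blood cells, carried most cells into the gate. It was detected in 255 of 271 chemoresistant cells (94.1%) and 198 of 214 primary cells (92.5%), and it was the only one of the 4 summed genes in 79 and 50 cells. Plac8 is not particular to monocytes in these libraries: in cells thinned to 2000 UMIs, with shallower ones left out, it was detected in 83.7% of the picked chemoresistant and 74.9% of the picked primary cells, against 65.0% and 41.8% of B cells (Cd79a at least 3, no Cd3e, Csf1r or Ccr2, at most 2 C1q UMIs, median depths 1751.5 and 4500 UMIs before thinning). Too shallow to thin were 25 picked chemoresistant and 7 picked primary cells, and 980 of 1548 and 19 of 2379 B cells, so the chemoresistant B-cell share rests on its 568 deepest cells. Tumour-type cells (Krt18 at least 5, no Ptprc, median depths 19082 and 22910) had Plac8 in 1.93% and 14.7%.

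Ly6c2, the gene of the classical monocyte surface antigen, was detected in 38 chemoresistant cells (14%) and 44 primary cells (20.6%). Thinned, its shares were 8.13% and 12.6%, against 1.76% and 1.23% of B cells. Chil3, a chitinase-like protein of classical monocytes, was detected in 84 chemoresistant (31.0%) and 86 primary (40.2%) cells. Among Lyz2-carrying cells its thinned shares were 59.5% and 51.3%, and among B cells 1.23% and 1.57%. Ms4a4c, a membrane gene of the monocyte Ms4a cluster, was detected in 151 chemoresistant and 127 primary cells. Ly6c2 and Chil3 thus lay mostly with Lyz2: unthinned, Chil3 was found in 68.4% and 64.5% of Lyz2-carrying cells and in 2.5% and 13% of Lyz2-low, class II-high cells.

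Ccr2, the receptor for monocyte chemokines, was carried by most of the Lyz2-carrying cells. Thinned to 2000 UMIs, it was detected in 91.7% of 84 chemoresistant and 81.2% of 117 primary cells deep enough, against 0.419% of 1193 and 1.72% of 116 tumour-type cells. The rule asks for Ccr2 or Csf1r, and the B-cell gate for neither, so B cells give no background for these genes. In CPM (the counts of the summed cells scaled to 1000000 UMIs), Lyz2-carrying cells had 1548 and 1293 CPM of Ccr2, the Lyz2-low, class II-high cells 630 and 610 CPM, and the cells with fibroblast genes 8.33 and 25.6 CPM. Csf1r, the receptor for the growth factor of macrophages, was at 419 and 470 CPM in Lyz2-carrying cells and at 69.7 and 162 CPM in Lyz2-low, class II-high cells (chemoresistant and primary in each case).

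Marker genes that the rule did not use differed between these subsets, in part through the cut on Lyz2. Lyz2 held 3300 of 362380 UMIs in chemoresistant and 11485 of 1031951 UMIs in primary Lyz2-carrying cells. It was not taken out of the sums that follow. The 30 other monocyte genes (Lyz2 itself among them) summed to 31081 CPM in chemoresistant and 31653 CPM in primary Lyz2-carrying, class II-low cells, and to 26598 and 26204 CPM in the class II-high ones. They summed to 8931 and 8236 CPM in Lyz2-low, class II-high cells, against 2222 and 1584 CPM in B cells, whose gate also caps C1q and bars Csf1r and Ccr2. Lyz2-carrying cells hold the monocyte genes at close to the same level in both libraries, and all picked cells together had 12736 and 18724 CPM. C1q-positive macrophages (the same rule with at least 3 C1q UMIs and no demand on monocyte genes) had 21882 CPM in the chemoresistant and 19457 CPM in the primary library.

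Conventional dendritic genes such as Cd209a and Zbtb46 lay in the Lyz2-low, class II-high cells of both libraries. Xcr1 and Clec9a did so in the chemoresistant library, but had only 1 and 4 UMIs in the primary cells of that subset. The list of conventional dendritic genes summed to 2812 CPM in the chemoresistant and 3071 CPM in the primary cells of that subset. All 14 of its genes outside the rule were detected in each, some by few UMIs. In Lyz2-carrying cells it summed to 351 and 488 CPM. A gate of Flt3-positive cells (at least 1 Flt3 and 10 H2-Ab1 UMIs, no Cd79a, Cd3e or Siglech, at most 2 C1q UMIs) had 2884 and 4366 CPM. The rule demands Flt3 at 0, yet the class II-high, Lyz2-low cells hold this list at levels near those of the Flt3-positive gate in the chemoresistant library and below them in the primary library.

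Fibroblast and endothelial genes such as Col1a1 summed to 1567 CPM over the picked chemoresistant and 3912 CPM over the picked primary cells. In the subset cut on Col1a1, Col1a2, Col3a1 and Dcn the list reached 4892 and 20489 CPM, and in Lyz2-carrying cells 190 and 58.1 CPM. Natural killer genes summed to 2250 CPM in the 3 chemoresistant and 4166 CPM in the 9 primary cells cut on lymphoid genes, against 0 UMIs and 33.9 CPM in Lyz2-carrying cells. Ctsg, a serine protease of early granulocyte and monocyte precursors, had 27 UMIs in 3 picked chemoresistant cells, all of them low in Lyz2 and class II, and 0 in the primary cells. B-lineage genes summed to 74.5 CPM in chemoresistant and 387 CPM in primary Lyz2-carrying cells.

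**Figure D2:**
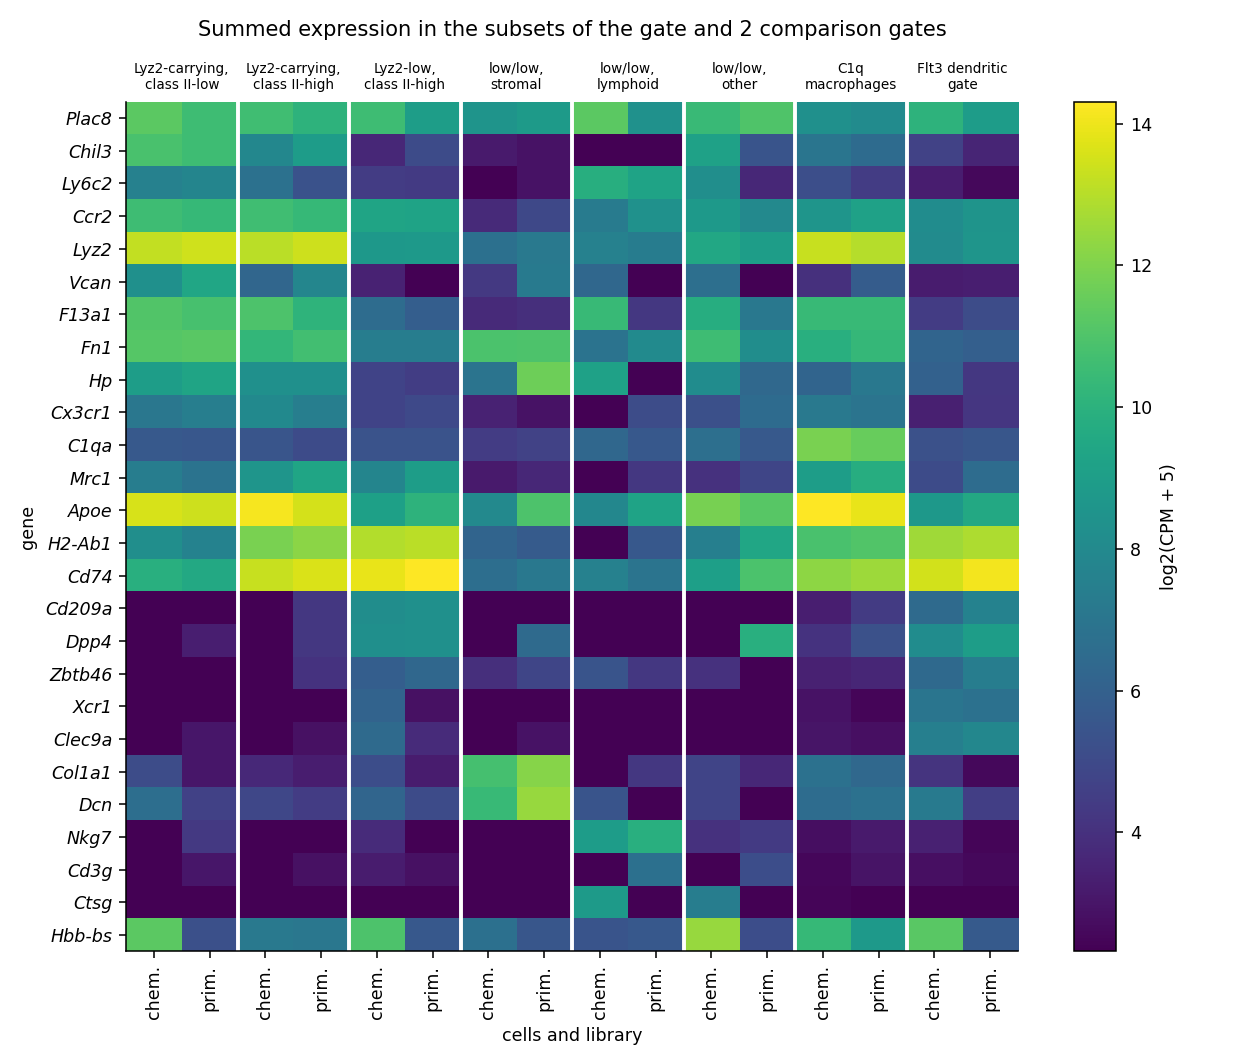
Heat map of log2(CPM + 5) of 26 marker genes (rows) in 6 subsets of the picked cells, in C1q-positive macrophages and in the Flt3-positive gate (columns, chemoresistant left of primary; "low/low" means low in Lyz2 and in class II). Monocyte genes are high in the Lyz2-carrying columns and fibroblast genes such as Col1a1 (1724 and 4480 CPM) in the stromal column. Dendritic genes are high in the Lyz2-low, class II-high and Flt3-positive columns, except Xcr1 and Clec9a in the primary Lyz2-low, class II-high cells.

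The edges of the rule were not sharp. Cells with a monocyte gene sum of 2, just outside, were 48 in the chemoresistant and 58 in the primary library and had 983 and 1475 CPM of Lyz2. Those with a sum of 3, just inside, were 36 and 25 and had 1043 and 1516 CPM, while the 169 and 130 cells with 7 or more had 2979 and 7155 CPM. At the other edge, cells with 2 C1q UMIs (55 and 54, inside) had 2497 and 5729 CPM of Lyz2, and those with 3 (21 and 36, outside) had 1287 and 4577 CPM. Among barcodes that missed 1 criterion alone, 1384 chemoresistant and 757 primary ones missed the C1q limit, 351 and 491 the monocyte gene sum, 130 and 143 the absence of Flt3, and 34 and 145 the absence of Cd79a.

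The share of picked cells depended on what it was set against. They were 1.82% (1.61 to 2.05%) of kept barcodes in the chemoresistant and 1.67% (1.45 to 1.91%) in the primary library, a difference of 0.149 percentage points (-0.166 to 0.462). Of barcodes with Ptprc they were 2.51% (2.19 to 2.87%, 210 of 8355) in the chemoresistant and 1.77% (1.53 to 2.04%, 188 of 10617) in the primary library, with intervals that lie apart. This denominator needs a Ptprc UMI, which shallow cells can miss. Ptprc was not detected in 411 of 1548 chemoresistant B cells (median 1751.5 UMIs) and 57 of 2379 primary ones (median 4500 UMIs). The part of depth in the Ptprc-based difference was not tested. Set against C1q-positive macrophages, of which there were 3403 in the chemoresistant and 1973 in the primary library, they were 7.38% (6.55 to 8.27%) and 9.79% (8.57 to 11.1%) of both gates together. That difference of -2.41 points (-3.97 to -0.902) turned to 0.313 when the monocyte gene sum had to reach 5 with no C1q UMI, a gate of 94 chemoresistant and 48 primary cells.

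Lyz2-carrying cells, the part of the gate cut on Lyz2, were 0.657% of kept barcodes in the chemoresistant and 0.944% in the primary library, a difference of -0.286 points (-0.507 to -0.0715). It too changed sign, to 0.0467, under the stricter gate. Beside C1q-positive macrophages, Lyz2-carrying cells were 2.80% (2.28 to 3.40%) of both in the chemoresistant library, against 5.78% (4.82 to 6.87%) in the primary library. Depth moved with these shares: Lyz2-carrying cells had a median of 3577 UMIs in the chemoresistant and 8315 UMIs in the primary library, and C1q-positive macrophages 5635 and 11033. The part of depth in these shares was not tested.

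Over all picked cells, monocyte and fibroblast genes were lower and dendritic and ribosomal protein genes higher in the chemoresistant library, which also held fewer Lyz2-carrying cells. Counts were summed per library and compared as log2 of (CPM + 5) in the chemoresistant over the primary cells, and a gene was called past 1.5-fold among those with a mean of at least 10 CPM. Of 8853 genes, 579 (6.54%) were higher and 2191 (24.7%) lower in the chemoresistant cells, 31.3% in all, with a median of -0.26 over all genes; centred on that median, the split was 1207 higher and 1120 lower. Of the 30 monocyte genes outside the rule 0 were higher and 12 lower (median -0.46), and of 13 conventional dendritic genes 6 were higher and 0 lower (median 0.55). All 6 fibroblast and endothelial genes tested were lower (median -1.44), and 24 of 37 ribosomal protein genes were higher with 0 lower (median 0.65).

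Genes of low oxygen and glycolysis were higher in the picked chemoresistant cells, 15 of 27 with 2 lower (median 0.65), but not in the Lyz2-carrying ones, where 2 of 26 were higher and 2 lower (median -0.07). Ndufa4l2, a mitochondrial gene induced by low oxygen, was at 403 CPM in 36 chemoresistant cells, against 25.5 CPM in 5 primary cells, where 1 cell held 41 of 53 UMIs. It reached 1299 and 130.5 CPM in the cells with fibroblast genes, and 66.2 and 1.94 CPM in Lyz2-carrying cells. Spp1, the secreted phosphoprotein osteopontin, was at 2076 CPM in the picked chemoresistant and 225 CPM in the picked primary cells (log2 ratio 3.18), but at 268 and 406 CPM in Lyz2-carrying cells. Ero1a, an oxidase of protein folding, was at 388 and 68.9 CPM over all picked cells and at 69.0 and 95.9 CPM in Lyz2-carrying cells.

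Some of the other leading genes were high in Lyz2-low cells or rested on few cells. The beta globin Hbb-bs, first among the higher genes, was at 1533 CPM in 146 picked chemoresistant cells and 56.35 CPM in 70 primary ones. In Lyz2-carrying cells it was at 1694 and 71.7 CPM, with 88.9% of the chemoresistant UMIs in 1 cell. Cryab, a small heat shock protein, was at 1013 CPM in 40 chemoresistant cells, against 108 CPM in 33 primary cells, and at 3379 and 532 CPM in the cells with fibroblast genes. Mgp, a matrix protein of fibroblasts, was at 34 CPM in the picked chemoresistant and 1324 CPM in the picked primary cells. Mmp3, a matrix protease, was at 3.09 and 337 CPM, with 89.8% of the primary UMIs in 1 cell. Genes of the gut lining were lower: Fabp2, a fatty acid carrier of enterocytes, had 0 UMIs in the chemoresistant cells and 1608 CPM in the primary cells, at least 868-fold lower, and Apoa1, an apolipoprotein of gut and liver, was at least 375-fold lower. Of the Fabp2 UMIs 30.01% lay in 1 of 81 primary cells, and Fabp2 was also at 80.5 CPM in primary B cells and 0 in chemoresistant ones.

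The further comparisons of the groups are given for the Lyz2-carrying cells, 98 chemoresistant and 121 primary, with 362380 and 1031951 UMIs. Of 7940 genes, 636 (8.01%) were higher and 1693 (21.3%) lower in the chemoresistant cells, with a median of -0.15; centred, 1078 were higher and 1165 lower. In C1q-positive macrophages 209 of 8496 genes (2.46%) were higher and 765 (9%) lower, with a median of -0.23 and a centred split of 560 and 191. The chemoresistant Lyz2-carrying cells are the smallest sum and their values the least precise. Red-cell RNA also differed: erythroid genes summed to 3436 CPM in the chemoresistant and 129 CPM in the primary Lyz2-carrying cells, beside 4184 and 998 CPM in B cells, and Hbb-bs, a beta globin, had 88.9% of its chemoresistant UMIs in 1 of 49 cells. The part of these differences in the results below was not tested.

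Genes that are induced by NF-kB (the main inflammatory transcription factor) and that feed back on it were lower in the chemoresistant Lyz2-carrying cells. Of the 17 in this list 0 were higher and 14 lower, with a median log2 ratio of -1.19. Over all genes 8.01% were higher and 21.3% lower, with a median of -0.15. Over 15 alternatives the median ranged from -1.26 to -0.81. In C1q-positive macrophages of the same libraries 0 were higher and 1 lower (median -0.34), and in Lyz2-low, class II-high cells 0 were higher and 11 lower (median -0.73). The shares over all genes were 2.46% higher and 9% lower in macrophages, and 10.2% and 23.9% in Lyz2-low, class II-high cells. Whether the cell types differ in this was not tested.

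Nfkbia, the inhibitor that holds NF-kB in the cytoplasm, was at 168 CPM (129 to 216, exact Poisson interval) in the chemoresistant Lyz2-carrying cells, against 457 CPM (417 to 501) in the primary ones, and was detected in 32 of 98 and 93 of 121 cells (log2 ratio -1.42). Sod2, the mitochondrial superoxide dismutase, was at 77.3 CPM (51.3 to 112) in 24 cells and 238 CPM (210 to 270) in 80 cells (-1.57). Tnfaip3, the ubiquitin-editing inhibitor A20, was at 16.6 CPM (6.08 to 36.0) and 64.0 CPM (49.5 to 81.4). For each of these 3 genes the counting intervals of the libraries do not overlap. Numbers of Lyz2-carrying cells with a gene, here and below, are unthinned unless called thinned. They also follow depth, as the chemoresistant cells were shallower (median 3577 against 8315 UMIs). Macrophages of the chemoresistant and primary libraries had 315 and 341 CPM of Nfkbia and 147 and 145 CPM of Sod2.

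Tnip1, a partner of Tnfaip3, had 3 UMIs in the chemoresistant and 57 in the primary Lyz2-carrying cells, a ratio of 0.15 (0.03 to 0.461). Nfkbiz, a nuclear regulator of NF-kB targets, was at 119 and 277 CPM, and Birc3, an inhibitor of cell death, at 52.4 and 123 CPM. Icam1 (an adhesion ligand for leukocyte integrins), Relb, Nfkb1, Rel and Bcl3 (subunits and a co-factor of NF-kB), Traf1 (an adaptor of TNF receptors) and Zc3h12a (an RNase that degrades cytokine transcripts) were also past 1.5-fold lower, with log2 ratios from -1.40 for Traf1 to -0.60 for Nfkb1. Zfp36, which destabilises cytokine transcripts, was at 298 CPM in the chemoresistant and 377 CPM in the primary cells and did not pass 1.5-fold, nor did Nfkb2 and Nfkbie.

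The whole list was lower per cell as well as in the sum. Its UMIs per 10000 had a median of 9.62 (quartiles 5.88 and 15) in the chemoresistant Lyz2-carrying cells and of 14.7 (11.9 and 23.2) in the primary ones, with medians of 9.44 and 11.3 in C1q-positive macrophages. Thinned to 2000 UMIs, the cells held on average 2.44 and 5.62 UMIs of the list. The 5 richest cells held 23.1% and 23.6% of its UMIs. The quartile ranges of the libraries overlap, with the lower primary quartile above the chemoresistant median.

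Cytokine genes were lower too, 7 of 14 with 2 higher (median -0.65, from -1.55 to -0.26 over 15 alternatives), beside 21.3% lower and 8.01% higher over all genes. Il1b, the inflammatory cytokine interleukin-1 beta, was at 168 CPM (129 to 216) in 10 chemoresistant Lyz2-carrying cells and 659 CPM (610 to 710) in 57 primary ones (log2 ratio -1.94). Of its 61 chemoresistant UMIs 49.2% lay in 1 cell, without which the level was 87.0 CPM; without the richest primary cell it was 559 CPM. Thinned, Il1b was detected in 4.76% (1.31 to 11.8%) of the chemoresistant cells, against 28.2% (20.3 to 37.3%) of the primary ones. The chemoresistant share could not be told from the 4.4% of B cells (3.56% in the primary library) at this number of cells. Macrophages had 197 and 203 CPM of Il1b.

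Ptgs2, the inducible cyclooxygenase of prostaglandin synthesis, was at 13.8 CPM in 2 chemoresistant and 104 CPM in 17 primary Lyz2-carrying cells. Nlrp3, the sensor of an inflammasome that activates interleukin-1 beta, was at 46.9 CPM in 16 and 162 CPM in 55 cells. Il1rn, the interleukin-1 receptor antagonist, was at 27.6 CPM in 3 and 81.4 CPM in 16 cells (5.61 and 52.9 CPM without the richest cell of each library), and Vegfa, the growth factor of blood vessels, at 38.6 and 69.8 CPM. Tnf, itself a strong inducer of NF-kB, was at 35.9 CPM in the chemoresistant and 37.8 CPM in the primary cells, values whose intervals overlap. Higher were Il18, at 46.9 and 28.1 CPM, and Il6, whose 44.2 CPM came from 1 chemoresistant cell.

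**Figure D3:**
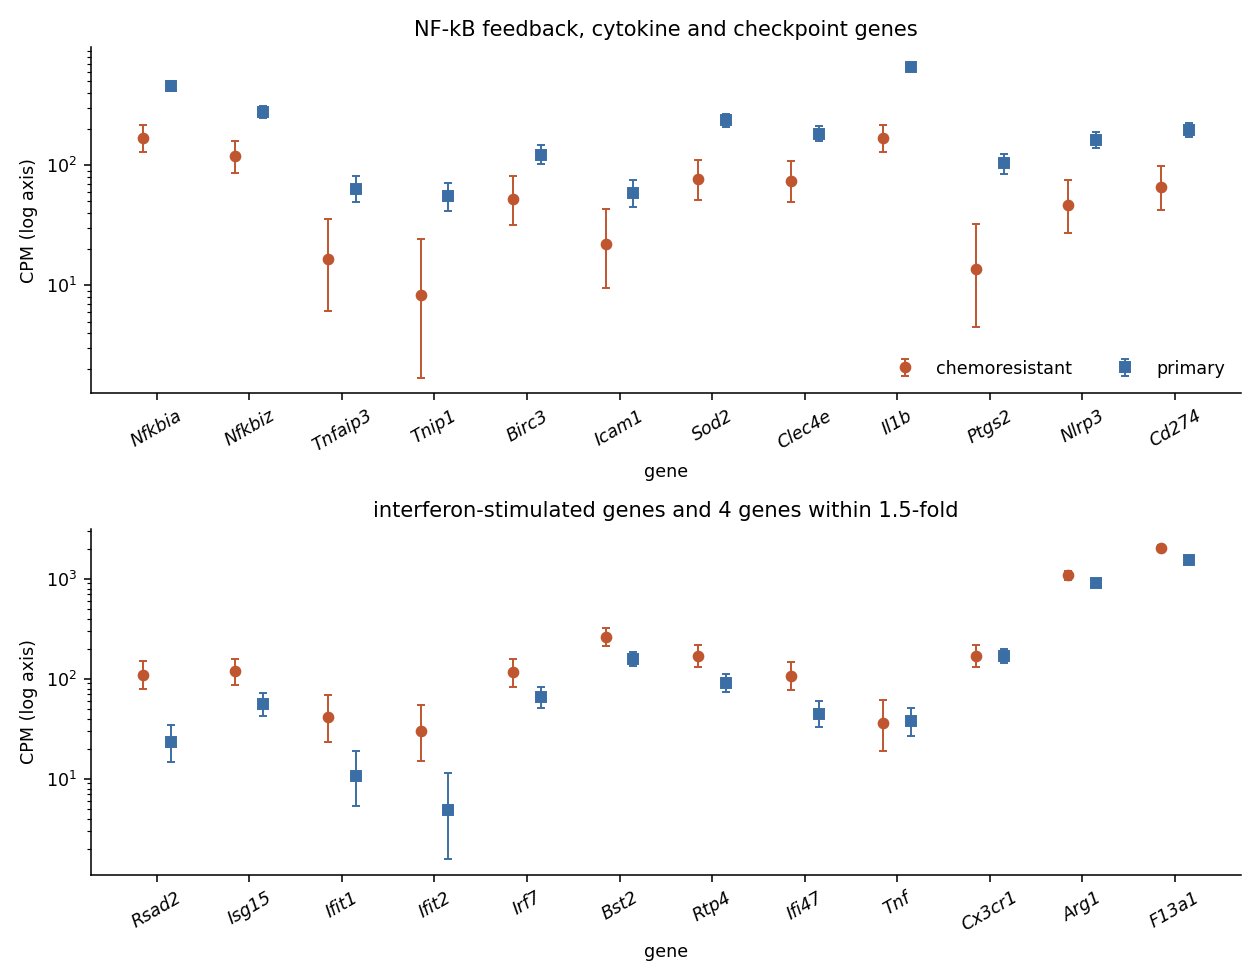
CPM of single genes in the summed Lyz2-carrying cells with exact 95% Poisson intervals (log axis; chemoresistant left of primary for each gene), with 12 NF-kB, cytokine and checkpoint genes above and 8 interferon genes with Tnf, Cx3cr1, Arg1 and F13a1 below. Nfkbia, Sod2 and Il1b are lower in the chemoresistant cells with intervals apart, Isg15 and Bst2 are higher, and Tnf and Cx3cr1 lie together.

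Genes induced by type I interferon went the other way. Of 27 tested, 13 were higher and 0 lower in the chemoresistant Lyz2-carrying cells, with a median of 0.44 that ranged from 0.38 to 0.75 over 15 alternatives. Over all genes 8.01% were higher and 21.3% lower in these cells. In C1q-positive macrophages 4 of 27 were higher and 0 lower (median 0.14), and in Lyz2-low, class II-high cells 4 were higher and 5 lower (median -0.19). The shares over all genes were 2.46% higher and 9% lower in macrophages, and 10.2% and 23.9% in Lyz2-low, class II-high cells. Isg15, a ubiquitin-like antiviral protein, was at 119 CPM (85.9 to 160) in 23 chemoresistant and 56.2 CPM (42.7 to 72.7) in 35 primary cells. Bst2, the surface protein tetherin, was at 265 CPM (215 to 324) in 53 and 159 CPM (135.5 to 185) in 77 cells. Both pairs of intervals lie apart with all cells counted. Of the 43 chemoresistant Isg15 UMIs 30.2% lay in 1 cell, and the level without that cell was not computed.

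Ifi47, an interferon-induced GTPase, was at 108 CPM in 25 chemoresistant and 44.6 CPM in 32 primary Lyz2-carrying cells, and Rtp4, a chaperone of membrane receptors, at 171 and 91.1 CPM. Irf7, the factor that amplifies the interferon response, was at 116 and 65.9 CPM, and Ifih1, a sensor of viral RNA, at 74.5 and 39.7 CPM. Rsad2, the antiviral enzyme viperin, had the largest ratio on the log2(CPM + 5) scale among the 27 (110 and 23.3 CPM, log2 2.03), with 77.5% of its chemoresistant UMIs in 1 of 8 cells; without the richest cell of each library it was at 25.1 and 11.7 CPM. Ifit1 and Ifit2, which bind viral RNA or halt translation, rested on 15 and 11 chemoresistant UMIs, and Ifit3 had a ratio of 6.64 (1.52 to 39.8).

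Per cell, the summed list had a median of 19.3 per 10000 UMIs in chemoresistant and 14.1 in primary Lyz2-carrying cells, and of 17.9 and 15.3 in macrophages. Thinned to 2000 UMIs, the mean was 4.76 and 3.62 UMIs, and at least 1 UMI was found in 86.9% of the chemoresistant and 88.9% of the primary cells, a measure near its ceiling. The 5 richest cells held 23% and 15.4% of the list's UMIs. The quartile ranges of the libraries overlap, at 11.7 to 32.1 per 10000 in the chemoresistant and 8.05 to 23.02 in the primary cells.

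Of the monocyte list itself, 4 of 29 genes were higher and 5 lower in Lyz2-carrying cells (median -0.12), a share near the 29.3% of all genes that passed 1.5-fold either way. Fn1, the matrix protein fibronectin, was at 1910 CPM in the chemoresistant and 2082 CPM in the primary cells, Hp, which binds haemoglobin, at 447 and 506 CPM, and F13a1, a clotting factor subunit, at 2050 and 1533 CPM. Lower was Vcan, a matrix proteoglycan of classical monocytes, at 235 CPM in 35 and 490 CPM in 55 cells (log2 -1.05). The share of cells with Vcan did not show this once thinned, at 29.8% of the chemoresistant and 30.8% of the primary cells. The richest cell held 9.41% of the chemoresistant and 14.6% of the primary Vcan UMIs. Also lower were Cd14, the co-receptor for bacterial endotoxin (149 and 318 CPM, -1.07), and Thbs1, a matrix glycoprotein (279 and 521 CPM). So were the C-type lectins Clec4d (58.0 and 150 CPM) and Clec4e (74.5 and 184 CPM). Higher were, among others, Ms4a6b (483 and 283 CPM), Msrb1 (a repair enzyme, 659.5 and 436 CPM) and the chemokine Ccl9 (1057 and 703 CPM), the last 2 at the 1.5-fold limit.

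Genes of non-classical monocytes were 2 higher and 8 lower of 15 (median -0.95, from -1.48 to -0.23 over 15 alternatives), beside 8.01% higher and 21.3% lower over all genes. Adgre4, an adhesion receptor, was at 22.1 CPM in 7 chemoresistant and 75.6 CPM in 35 primary Lyz2-carrying cells (log2 -1.57), and Itgal, an integrin that binds Icam1, at 27.6 and 81.4 CPM. Nr4a1, the factor these cells depend on, was at 55.2 and 111 CPM. Ace, a peptidase, had 1 and 27 UMIs, a ratio of 0.105 (0.00258 to 0.64), and Treml4 a ratio of 0.231 (0.0455 to 0.729). Ear2, a secreted ribonuclease, was at 33.1 and 99.8 CPM, beside 71.2 and 251 CPM in macrophages. Cx3cr1, the chemokine receptor most used to mark these cells, was at 171 and 170 CPM, and the summed list per cell had medians of 23.7 and 21.5 per 10000, so the sum over the list did not follow its median gene.

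Of checkpoint and suppression genes 0 of 16 were higher and 6 lower (median -0.48), beside 8.01% higher and 21.3% lower over all genes. Cd274, the checkpoint ligand PD-L1, was at 66.2 CPM (42.4 to 98.5) in 10 chemoresistant and 198 CPM (172 to 227) in 38 primary Lyz2-carrying cells (log2 -1.51), beside 71.0 and 74.8 CPM in macrophages. Entpd1, an enzyme that breaks down extracellular ATP, was at 13.8 and 62.0 CPM, and Nos2, the inducible nitric oxide synthase, had a ratio of 0.121 (0.0143 to 0.463), with 63.8% of its 47 primary UMIs in 1 of 6 cells; without the richest cell of each library it was at 2.81 and 17.0 CPM. Arg1, the arginase of suppressive myeloid cells, was at 1082 and 917 CPM and did not pass 1.5-fold. The class II list, which is wider than the class II genes themselves, was 0 higher and 4 lower of 10 (median -0.46, from -0.66 to -0.05 over 15 alternatives). With barcodes thinned before the gate 1 was higher and 1 lower of 11. Cd86, a costimulatory ligand, was at 105 and 232 CPM, and Ciita, the master regulator of class II, at 52.4 and 95 CPM. H2-Ab1, a class II gene itself, was at 1501 and 2068 CPM and did not pass 1.5-fold.

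Immediate early genes, which respond to signals and to tissue handling, were 1 higher and 6 lower of 21 (median -0.43). These counts are near the shares over all genes in Lyz2-carrying cells, 8.01% higher and 21.3% lower. Jun and Fosb, subunits of the AP-1 factor, were at 270 and 467 CPM and at 35.9 and 94.0 CPM in chemoresistant and primary Lyz2-carrying cells, and Klf2, a factor of quiescence, was higher at 301 and 169 CPM. Fos was at 461 and 526 CPM. In macrophages 0 of 21 were higher and 1 was lower. The digestion was the same for both groups by the labels, and its part in these genes and in the NF-kB genes was not tested.

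Of the chemokines 4 were higher and 5 lower of 14 (median 0.05), beside 8.01% higher and 21.3% lower over all genes. The balance depended on the cells taken. The median ranged from -0.48 to 0.66 over 15 alternatives, with 9 higher and 3 lower at a Lyz2 threshold of 10 per 10000 and 1 higher and 7 lower at a threshold of 40. Ccl3 and Ccl5, which draw monocytes and T cells, were at 27.6 and 81.4 CPM and at 24.8 and 77.5 CPM in chemoresistant and primary Lyz2-carrying cells, and Cxcl16 was at 33.1 and 89.2 CPM. Higher were Ccl6 (3364 and 2159 CPM), Ccl12 (146 and 71.7 CPM) and Ccl24, an eosinophil attractant (69.0 and 32 CPM). Cxcl2, a neutrophil attractant, was at 632 and 691 CPM. Cd44, the receptor for hyaluronan, was at 254 CPM in 47 and 564 CPM in 99 cells, while macrophages had 254.5 and 278 CPM.

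Macrophage genes were 5 higher and 2 lower of 18 (median 0.40) in chemoresistant Lyz2-carrying cells, beside 8.01% higher and 21.3% lower over all genes. Trem2, a lipid receptor of tumour macrophages, was at 375 CPM in the chemoresistant and 214 CPM in the primary cells, and Selenop, a selenium carrier, at 814 and 388 CPM. Apoe, the main lipid carrier of macrophages, was at 14132 and 11145 CPM, and Mrc1, the mannose receptor, at 237 and 336 CPM. Macrophages had 595 and 369 CPM of Trem2 and 1285 and 1145 CPM of Selenop, and B cells had 20.7 and 12.3 CPM of Trem2 and 79.5 and 43.7 CPM of Selenop. The rule caps C1q at a fixed 2 UMIs, and the chemoresistant Lyz2-carrying cells were shallower (median 3577 against 8315 UMIs). The parts of this cap and of free RNA in the Lyz2-carrying values were not tested.

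Lists of basic metabolism had few genes past 1.5-fold in Lyz2-carrying cells. Of 36 genes of oxidative phosphorylation 1 was higher (median 0.15), of 21 lysosomal genes 0 differed (median -0.11), and of 37 ribosomal protein genes 3 were higher and 0 lower (median 0.38), beside 9 higher in macrophages (median 0.48). Centred on the median of all genes, 15 of the 37 were higher in Lyz2-carrying cells (median 0.53), and with cells thinned to 2000 UMIs 8 were. Targets of p53, the factor that DNA damage activates, were 2 higher and 2 lower of 13 (median 0.12), beside 8.01% higher and 21.3% lower over all genes. Bbc3, a promoter of cell death, was at 27.6 and 6.78 CPM, Mdm2, the ligase that removes p53, at 58.0 and 117 CPM, and Cdkn1a, the cell-cycle inhibitor p21, at 154.5 and 182 CPM in chemoresistant and primary Lyz2-carrying cells.

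**Figure D4:**
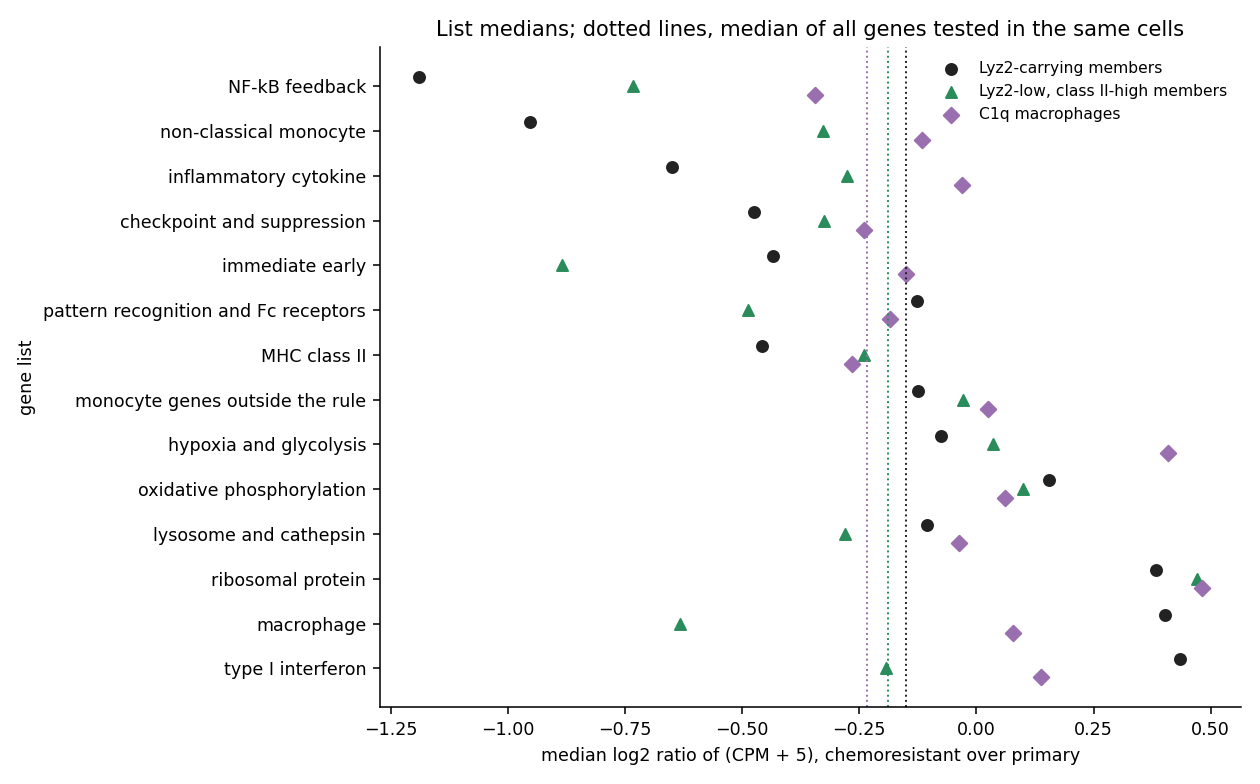
Median log2 ratio of (CPM + 5), chemoresistant over primary, of 14 gene lists in Lyz2-carrying cells, Lyz2-low, class II-high cells and C1q-positive macrophages; dotted lines mark the median of all genes tested in each. In Lyz2-carrying cells the NF-kB list lies lowest at -1.19 and the type I interferon list at 0.44, while in macrophages both lie between -0.34 and 0.14.

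Among the genes with the largest ratios in Lyz2-carrying cells, some were also different in other cells. Ly6a, the surface antigen Sca-1 that interferon induces, was at 389 CPM in the chemoresistant and 111 CPM in the primary Lyz2-carrying cells, and at 596 and 138 CPM in macrophages. Cmss1 was at 270 and 1506 CPM, beside 180 and 1384 CPM in macrophages and 389 and 1741 CPM in B cells. Hmox1, the enzyme that degrades haem, was at 809 CPM in 55 and 294 CPM in 88 cells (log2 1.45), with 2886 and 2192 CPM in macrophages. Retnla, a secreted protein of alternatively activated macrophages, was at 96.6 and 18.4 CPM, with 82.9% of its chemoresistant UMIs in 1 of 7 cells.

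Among the lower genes, Ly6i, a Ly6-family surface gene, had 2 UMIs in the chemoresistant and 156 in the primary Lyz2-carrying cells, a ratio of 0.0365 (0.00438 to 0.134). Pmaip1, the death-promoting protein Noxa, had 0 UMIs in the chemoresistant cells and 57 in 23 primary cells, at least 6.67-fold lower, beside 14.7 and 25.0 CPM in macrophages. Slc7a11, the cystine importer that feeds glutathione, and Hspa1a, a heat shock protein, each had 2 and 58 UMIs, a ratio of 0.0982 (0.0116 to 0.371). Paneth cell defensins (Defa24, Defa22 and Defa21) had 0 UMIs in the chemoresistant cells and came from 3 or fewer primary cells each.

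Within Lyz2-carrying cells, the class II-low ones held more of the classical monocyte genes than the class II-high ones in both libraries. Class II genes chose these subsets, and the background was large: 1590 (20.2%) of 7883 genes were higher and 1924 (24.4%) lower in the class II-low cells of the chemoresistant library, against 1100 (13.6%) and 841 (10.4%) of 8108 in the primary library. Of 29 monocyte genes outside the rule 13 were higher and 0 lower in the chemoresistant library (median 0.37), and 10 and 0 in the primary library (0.49). Vcan was at 319 CPM in class II-low and 72.4 CPM in class II-high chemoresistant cells, and at 674 and 224 CPM in primary ones. Mrc1 ran the other way, with 164 and 378 CPM in chemoresistant cells and 115 and 659 CPM in primary cells.

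Il1b was also higher in the class II-low cells, at 227 CPM against 56.3 CPM in class II-high cells of the chemoresistant library and at 890 against 323 CPM in the primary library. The chemoresistant values rest on 6 and 4 cells with Il1b, and without the richest cell of each subset they were 103 and 32.7 CPM. S100a4, a calcium-binding protein of classical monocytes, was at 1877 against 869 CPM and at 1549 against 782 CPM. The chemoresistant values were thus below the primary ones for Il1b in either subset. Ly6a was lower in class II-low cells, at 265 against 628 CPM in the chemoresistant and at 47.4 against 204 CPM in the primary library.

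Lyz2-carrying cells and C1q-positive macrophages differ by the rule in C1q and the monocyte genes, so what follows describes gates of the same library. In the chemoresistant library 900 (11.3%) of 7944 genes were higher and 1114 (14%) lower in Lyz2-carrying cells, and in the primary library 597 (7.03%) of 8497 were higher and 1088 (12.8%) lower, 25.4% and 19.8% of the genes tested in either direction. The rule used this contrast, and nothing is read from these shares. Vcan led by the smaller of its ratios in the libraries, at 235 against 10.9 CPM in the chemoresistant library and at 490 against 51.6 CPM in the primary library. Hp was at 447 against 68.8 CPM and at 506 against 136 CPM. Sirpd, a membrane gene of the signal-regulatory family, was at 69.0 against 3.64 CPM and at 64.9 against 6.99 CPM, and Gpr141, an orphan receptor, at 168 against 30.6 CPM and at 155 against 22.8 CPM.

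Lower in Lyz2-carrying cells were genes of resident macrophages. Fcna, a ficolin of the lectin pathway, was at 30.4 against 654 CPM in the chemoresistant and at 10.7 against 434 CPM in the primary library. Lyve1, a hyaluronan receptor, had 0 UMIs in chemoresistant Lyz2-carrying cells, at least 11.4-fold lower, and a ratio of 0.0111 (0.000281 to 0.062) in the primary library. Igf1, a growth factor, was at 22.1 against 183 CPM and at 13.6 against 188 CPM. Marco, a scavenger receptor, had 3 UMIs in chemoresistant and 0 in primary Lyz2-carrying cells.

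By list, 19 of 29 monocyte genes outside the rule were higher and 1 lower in the chemoresistant library (median 0.78), and 20 and 0 in the primary library (0.79). Macrophage genes were 0 higher and 15 lower of 20 (-1.30), and 0 and 15 of 19 (-1.37). Cell-cycle genes were 0 higher and 12 lower of 18 (-1.10) in the chemoresistant and 0 and 18 of 20 (-1.83) in the primary library. Mki67, the proliferation antigen, was at 2.76 against 29.4 CPM and at 10.7 against 78.6 CPM, and Top2a, a topoisomerase of dividing cells, at 2.76 against 45.2 CPM and at 1.94 against 67.5 CPM. Genes of pattern recognition and Fc receptors were 13 higher and 3 lower of 27 (0.55), and 14 and 0 (0.63).

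The NF-kB and cytokine lists stood differently against macrophages in the libraries. NF-kB genes were 2 higher and 6 lower of 17 in chemoresistant Lyz2-carrying cells (median -0.06), and 6 and 0 in primary ones (0.48). Cytokine genes were 1 higher and 6 lower of 15 (-0.43), and 8 and 2 of 16 (0.45). Chemokines were lower in both, 9 of 14 in the chemoresistant and 9 of 16 in the primary library, with 0 and 1 higher.

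**Figure D5:**
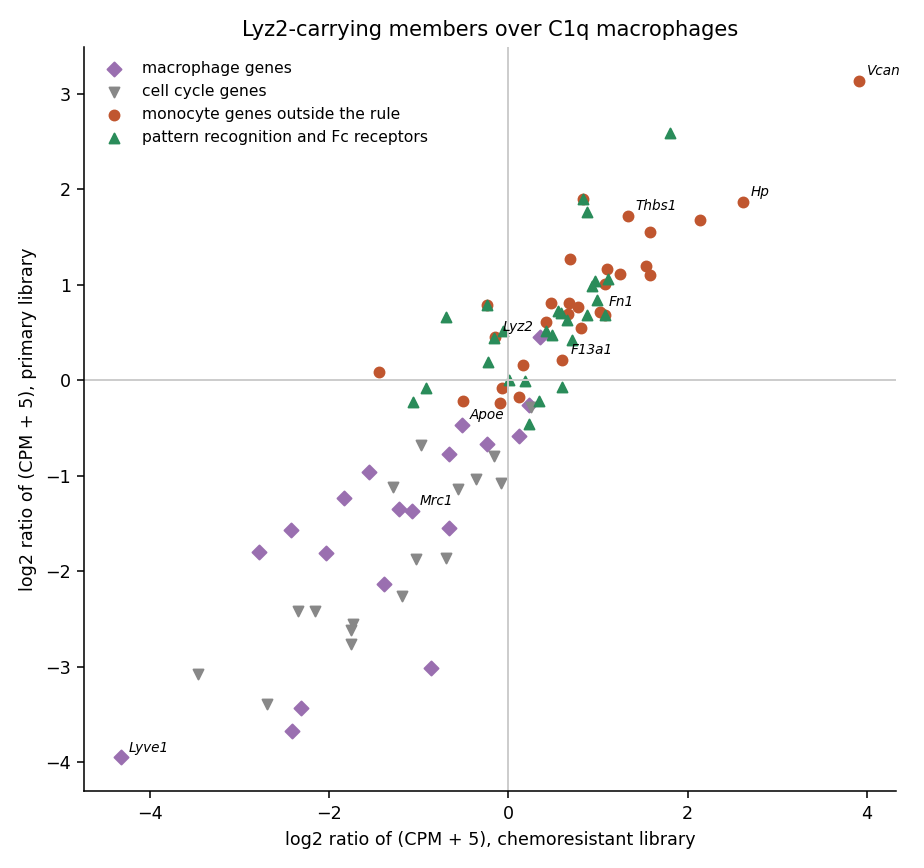
Log2 ratio of (CPM + 5), Lyz2-carrying cells over C1q-positive macrophages, in the chemoresistant library (x axis) against the primary library (y axis), with 1 point per gene of 4 lists. Monocyte genes lie up and right with Vcan farthest (3.92 and 3.13), and macrophage and cell-cycle genes lie down and left.

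The whole gate, as the rule gives it, was led over macrophages by genes of other cells. In the chemoresistant library 980 (11.8%) of 8314 genes were higher and 976 (11.7%) lower in the picked cells, and in the primary library 1099 (12.1%) of 9087 were higher and 695 (7.65%) lower, 23.5% and 19.7% in either direction. The 12 leading genes included Mfap5, Tagln, Serpinf1, Lox, Lum and Fbln2 of fibroblasts and matrix, Klrd1 of natural killer and dendritic cells, and H2-Oa of class II presentation. Fcna, Marco, Lyve1, Cd5l and Slc40a1 led the lower genes, as they did for Lyz2-carrying cells.

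Lyz2-low, class II-high cells, 120 chemoresistant and 46 primary, were compared last. Of 8094 genes 825 (10.2%) were higher and 1932 (23.9%) lower in the chemoresistant cells, with a median of -0.19. Genes of the cross-presenting type of dendritic cell were among the leading higher ones. Clec9a, a receptor for dead cells, was at 83.3 CPM in 25 chemoresistant and 8.78 CPM in 3 primary cells, and Irf8, the factor this type depends on, at 206 CPM in 27 and 46.1 CPM in 11 cells. Xcr1, its chemokine receptor, had a ratio of 29.7 (5.05 to 1199.2), and Cadm1, an adhesion protein, a ratio of 27.6 (7.4 to 232).

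In the Flt3-positive gate of the same libraries these genes were not called higher: it had 123 and 106 CPM of Xcr1, 178 and 227 CPM of Clec9a, 165 and 281 CPM of Cadm1 and 450 and 518 CPM of Irf8 in the chemoresistant and primary library. Chemoresistant cells are shallower, with a median of 4969 UMIs in this subset against 10204.5 in the primary library, and the rule asks for a Flt3 count of 0. The part of depth in these differences was not tested. Cd209a, a lectin of the other conventional type and of monocyte-derived cells, was at 288 CPM in 51 chemoresistant and 322 CPM in 29 primary cells. Thinned, it was detected in 30.5% and 37.8% of this subset, against 12.1% and 19.4% of the Flt3-positive gate, and in 0% and 0.170% of B cells. Dpp4, a surface peptidase, was at 312 and 314 CPM, and Zbtb46, a factor of conventional dendritic cells, at 54.5 and 74.6 CPM.

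Against the Flt3-positive gate, these cells held more monocyte and Fc receptor genes in both libraries. The rule asked them for monocyte genes and for Csf1r or Ccr2, and the Flt3-positive gate asked for neither. What follows therefore describes gates that were picked apart in this respect. The background was 579 (7.05%) genes higher and 1149 (14%) lower of 8208 in the chemoresistant library, and 930 (11.1%) and 1137 (13.6%) of 8355 in the primary library. Monocyte genes outside the rule were 21 higher and 2 lower of 27 in the chemoresistant library (median 0.94), and 18 and 0 of 28 in the primary library (0.87). Pattern recognition and Fc receptor genes were 18 higher and 0 lower of 21 (1.11), and 17 and 0 of 22 (1.07). Fcgr3, a low-affinity Fc receptor, was at 65.1 against 8.30 CPM in the chemoresistant library and at 119 against 36.4 CPM in the primary library. Conventional dendritic genes were 3 higher and 5 lower of 14 (-0.28), and 3 and 10 (-0.91).

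Between the libraries, cell-cycle genes were 13 higher and 2 lower of 20 in chemoresistant Lyz2-low, class II-high cells (median 0.74), immediate early genes 0 higher and 14 lower of 22 (-0.88), and ribosomal protein genes 16 higher and 0 lower of 37 (0.47). Over all genes 10.2% were higher and 23.9% lower in these cells. The 5 richest cells held 29.3% of the cell-cycle list's UMIs in the chemoresistant and 34.8% in the primary cells. Ube2c, a ligase of mitotic exit, was at 62.1 CPM in 9 cells and 8.78 CPM in 1 cell. Of its chemoresistant UMIs 41.5% lay in 1 cell, and without the richest cell of each library it was at 37.0 and 0 CPM. Mki67 was at 21.2 CPM in the chemoresistant and 41.7 CPM in the primary cells. Jun was at 223 and 428 CPM, and Egr1, an early response factor, at 98.4 and 186.5 CPM. Ly6a was higher here also, at 285 CPM in 49 and 43.9 CPM in 11 cells. Ccl3, at 6.06 and 189 CPM, rested on 7 primary cells with 69.8% of its UMIs in 1 of them, and Slpi, a protease inhibitor, at 13.6 and 257 CPM, on 2 primary cells with 99.2% in 1.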

How the data were processed

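Droplet 3' single-cell libraries of pooled tumour suspensions, 1 per group, were deposited as matrices of UMI counts per gene and barcode. The authors made these counts with Cell Ranger 8.0.1 on the mm10 build, per the submitters' processing notes; the gene annotation was not stated there. The 33696 genes of the files were used as named there. Counts were read with scanpy 1.11.5 and numpy 2.4.6. The rule was applied to raw counts, counts of the chosen cells were summed per library and gate, and CPM (per 1000000 UMIs) of the sums were compared as log2 of CPM + 5. A gene was called at 1.5-fold among those with a mean of at least 10 CPM, without a test. Intervals are exact Poisson (CPM), Clopper-Pearson (shares) or combined from Clopper-Pearson limits (differences of shares), from scipy 1.17.1, and cover counting error only. A fold against 0 UMIs uses a floor of 3 counts over the summed cells.

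Named genes are the 12 highest and lowest ratios with at least 50 CPM in the higher group, there at least at the level of all kept barcodes of the library, and up to 4 genes of each list described; the others were chosen after their values were seen. The members and lists were chosen with earlier results of these data known, and the Lyz2 and class II split after seeing the data. The calculation was tested on simulated data. Alternatives covered doublets, a stricter gate, thinning before the gate and of the cells, leaving out the richest cell of genes resting on few cells (chosen after seeing the data), mitochondrial limit, pseudocount, expression filter, cell means, centring and subsets.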

Additional observations from a re-analysis of the deposited data

Results flagged for a closer look

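4 genes differed in opposite directions between the libraries in a subset and in a comparison gate; none of these differences between cell types was tested. Retnla had a log2 ratio of chemoresistant over primary of 2.12 in Lyz2-carrying cells and of -1.45 in C1q-positive macrophages, and the first rests on 1 cell with 82.9% of its UMIs. Cadm1 had 3.75 in Lyz2-low, class II-high cells and -0.75 in the Flt3-positive gate. The first rests on 80 chemoresistant UMIs, 35% of them in 1 cell, and 2 primary UMIs. Nr4a2, an early response factor, had 1.90 in Lyz2-low, class II-high cells (36 and 5 UMIs) and -0.76 in the Flt3-positive gate. Slpi had -3.81 in Lyz2-low, class II-high cells, where 1 primary cell held 99.2% of the primary UMIs, and 1.63 in the Flt3-positive gate.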

How the results depend on the processing

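No paired analysis was possible because each group is 1 library, and no replicate could be left out. Of 103 recomputed shares and counts 78 stayed within their limits, 23 moved and 2 changed sign; of 754 list medians 661, 91 and 2; of 696 ratios of named genes 647, 34 and 15. Shares: the difference of picked cells in kept barcodes was 0.743 points among barcodes with Ptprc, -0.286 for Lyz2-carrying cells and -0.189 for Lyz2-carrying, class II-low cells; the stricter gate turned the share beside macrophages to 0.313 and that of Lyz2-carrying cells to 0.0467. Genes past 1.5-fold between the libraries were 2770 over all picked cells, and 1622 with a pseudocount of 20 CPM, 4308 with no filter and 1063 with a mean of at least 50 CPM. In Lyz2-carrying cells they were 2329, and 1242, 4832 and 719 under these settings, 3523 under the stricter gate and 3587 with cells thinned to 2000 UMIs. Picked cells over macrophages gave 1956 in the chemoresistant library, 1289 with a pseudocount of 20 and 807 with a mean of at least 50, and 1794 in the primary library, where no filter gave 2823 and the other settings 1194 and 643. Of the lists, 11 had a median past 1.5-fold over all picked cells; 3 did when barcodes were thinned before the gate, with a pseudocount of 20 or in Lyz2-carrying cells, 4 by the mean over cells, 5 when centred, and 6 with cells thinned or in Lyz2-carrying, class II-low cells. Signs changed in Lyz2-carrying cells for the hypoxia list (-0.075), Spp1 (-0.59), Tnfrsf9 (-2.17), Ero1a (-0.45) and Mgp (0.79), and in the class II-low ones for the complement list (0.0086), Spp1 (-0.28), Cryab (-0.30), Tnfrsf9 (-0.41), Ero1a (-0.27) and Mgp (1.38). Fdx1 was -0.75 with barcodes thinned before the gate and Sis 0.083 in cells with Ptprc. In Lyz2-carrying cells Retnla was -1.47 under the stricter gate, -0.35 at a Lyz2 threshold of 40 and -0.43 with class II under 80, and Errfi1 -0.30 under the stricter gate. Beyond the smaller sums or other cells each setting leaves, the cause was not tested. Depth limits the chemoresistant Lyz2-carrying cells, where a gene under 3 UMIs lies within the limit that a count of 0 allows.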

Other observations

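Interferon-gamma guanylate-binding genes, not described above, were 0 higher and 10 lower of 18 over all picked cells (median log2 ratio -0.61) and 2 higher and 5 lower of 18 in Lyz2-carrying cells (median -0.31, from -0.51 to 0.18 over 15 alternatives). Regulators of cell death were 2 higher and 7 lower of 20 in Lyz2-carrying cells (-0.33), and transcription factors of the monocyte line 1 higher and 3 lower of 25 (-0.28). Heat shock genes were 1 higher and 3 lower of 12 (-0.07). Over all genes tested, 8.01% were higher and 21.3% lower in Lyz2-carrying cells, and 6.54% and 24.7% over all picked cells.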
